A study of Arabidopsis thaliana with 12 samples.

Results

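Expansins and XTHs (xyloglucan endotransglucosylase/hydrolases) are cell wall proteins of plant growth, and 10 of their genes were followed here across wild-type Arabidopsis thaliana and 3 grandifolia mutants. The 10 loci were taken by name from the 20777 loci of the expression table, and all 10 are on it. They are 5 XTH genes, XTH4 (AT2G06850), XTH5 (AT5G13870), XTH6 (AT5G65730), XTH7 (AT4G37800) and XTH24 (AT4G30270), and 5 alpha-expansin genes, EXPA1 (AT1G69530), EXPA5 (AT3G29030), EXPA8 (AT2G40610), EXPA10 (AT1G26770) and EXPA16 (AT3G55500). The other 52 XTH and expansin loci of the table serve as their families. Affymetrix ATH1 arrays measured RNA from the vegetative part of Col-0 seedlings, with 3 arrays for each of wild type (WT), gra1-D, gra2-D and gra3-D. At stage 1.03 the seedlings were taken from MS medium kept at 22 °C, where days had 16 h of light and nights 8 h. The series title links the mutants to a chromosomal duplication, and the labels give no other allele, treatment or detail of the lines. Each array stands for 1 biological replicate, and nothing more is said of separate cultures, so p-values measure the spread between these 3 samples a group.

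The primary cell wall of a growing plant cell is a network of cellulose microfibrils tethered by xyloglucan and embedded in pectin. XTHs cut xyloglucan chains and rejoin them to other chains, and some members of the family hydrolyse them. Alpha-expansins loosen the contacts between wall polysaccharides without cutting them, and they act best in the acid wall that plasma membrane proton pumps produce. In Arabidopsis leaves, EXPA10 and EXPA5 have been tied to leaf growth through plants with altered levels of them. Bulk RNA was measured, so fewer cells of a type and less RNA per cell cannot be told apart.

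Arrays had median log2 values from 6.36 to 6.43 and correlated at 0.991 to 0.998 over loci, which are not independent replicates. Of the 6 green shoot markers 2 were measured, the photosynthesis genes RCA and PSBO1, at mean log2 values of 14.2 and 14.1. The 6 root markers read 4.11 to 5.55, the 4 floral markers 3.46 to 3.94 and the 3 seed storage markers 3.47 to 4.36. The floral and seed storage markers and 3 of the 6 root markers had means under 5, taken here as close to the array background, and limma called 0 of these 15 genes in any mutant against wild type (1 floral marker in gra2-D at an unadjusted p under 0.05). The median log2 change over all loci was -0.015, -0.00017 and -0.019 in gra1-D, gra2-D and gra3-D.

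XTH7 rose in every mutant, 2.0-fold in gra1-D, 2.07-fold in gra2-D and 2.01-fold in gra3-D. EXPA16 fell in gra1-D and gra3-D, and over the 3 mutants together EXPA16, EXPA10 and EXPA5 fell. XTH4, XTH5, XTH6, XTH24, EXPA1 and EXPA8 were not called in any of these comparisons. By limma at a Benjamini-Hochberg adjusted p under 0.05, 1 member was higher and 1 lower in gra1-D, where 5.58% of all loci were called (2.82% higher, 2.76% lower). In gra2-D 1 was higher and 0 lower against 11.5% of all loci (5.24% higher, 6.23% lower). In gra3-D 1 member was higher and 1 lower against 6.11% (3.13% higher, 2.97% lower). In the mean of the 3 mutants, 1 member was higher and 3 lower, where 11.7% of loci were called (4.83% higher, 6.91% lower). The duplicated region is taken here as chromosome 4 from AT4G31170 on, which includes stretches not raised in every mutant. Outside it 2.82%, 6.47%, 3.05% and 7.16% of loci were lower in gra1-D, gra2-D, gra3-D and their mean. Of the 9 members there, 1, 0, 1 and 3 were lower. Counts of 0 or 1 in the single mutants are near that background. At an unadjusted p under 0.05 stood 6, 4 and 4 of the 10 members in gra1-D, gra2-D and gra3-D, where 18%, 23.8% and 17.7% of all loci did. With the replicate number as a block and the gra3-D arrays left out, a fit added after seeing the data, 1 member was higher and 4 lower in gra1-D and 1 and 2 in gra2-D, where 8.76% and 15.7% of all loci were called in either direction.

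The median log2 change of the 10 members was -0.24, -0.059 and -0.032 in gra1-D, gra2-D and gra3-D. Without XTH7, whose locus lies in a duplicated region, the medians of the other 9 were -0.27, -0.065 and -0.053. The 3 comparisons share the wild-type arrays, so their values stand side by side and do not support each other.

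**Figure D1:**
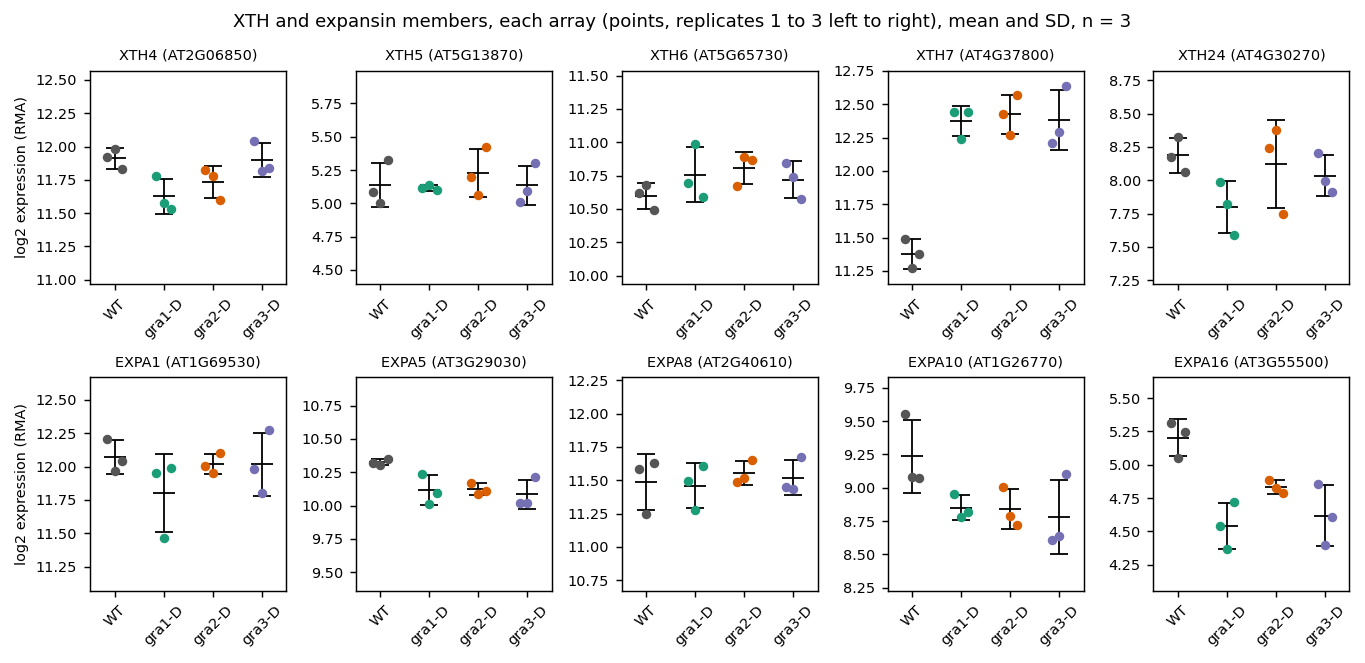
Log2 expression (RMA) of the 10 members in each array, by group, with replicates 1 to 3 from left to right and bars for the mean and SD (n = 3); every panel has its own axis. XTH7 is the gene whose mutant arrays, at 12.21 to 12.64, all lie above wild type, at 11.27 to 11.49, and EXPA16 and EXPA5 have all 9 mutant arrays below wild type.

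XTH7 gave strong signal, with a mean log2 value of 12.1, though array signal does not compare levels between genes. In replicates 1, 2 and 3 it read 11.49, 11.27 and 11.38 in wild type, with gra1-D at 12.44, 12.24 and 12.44, gra2-D at 12.43, 12.27 and 12.57 and gra3-D at 12.21, 12.30 and 12.64. All 9 mutant arrays lay above all 3 wild-type arrays, and the mutants overlapped one another. The log2 change was 1.0 ± 0.11 (SE) in gra1-D (adjusted p = 5.29e-05), 1.05 ± 0.11 in gra2-D (adjusted p = 2.46e-05) and 1.0 ± 0.11 in gra3-D (adjusted p = 4.76e-05, limma). The mean of the mutants stood 1.02 ± 0.093 above wild type (adjusted p = 4.21e-06). Non-overlap upward on its own was found for 8.36%, 12.3% and 8.92% of all loci in gra1-D, gra2-D and gra3-D.

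XTH7 lies on the lower arm of chromosome 4, in the region that was raised in all 3 mutants. That region runs from AT4G33510 to AT4G40090, the last locus of the chromosome on the table, and holds 561 loci, of which 383 had a mean log2 value of 6 or more and count here as expressed. Its bounds were found earlier on these same arrays, so the rise of XTH7 is no independent sign of the duplication. The median log2 change of its expressed loci was 0.85, 0.88 and 0.87 in the same order of mutants. XTH7 stood above that median by 0.15, 0.17 and 0.13. None of these departures passed the test (adjusted p = 0.379, 0.281 and 0.46, limma, adjusted over the 383 loci), where 16.2%, 25.3% and 16.7% of the expressed loci of the arm were called as departing in either direction. Without gra3-D replicate 3, the array with the highest XTH7 value, the departure in gra3-D was 0.00736.

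Loci of strong signal in the arm had smaller median changes than its expressed loci as a whole, and so did loci of weak signal. The 49 arm loci with a mean from 5 to under 6 had median changes of 0.40, 0.47 and 0.42 in gra1-D, gra2-D and gra3-D. For the 14 arm loci whose mean reached 12, the median changes were 0.53, 0.57 and 0.53, and XTH7 ranked 2 among the 14 in every mutant. Among all 383 expressed loci it ranked 95, 75 and 83 in gra1-D, gra2-D and gra3-D. The neighbours of XTH7 on the chromosome, as the gene table orders them, gave HAT22, a homeodomain-leucine zipper gene, at 0.91, 1.0 and 1.0 and AT4G37820 at 1.18, 1.10 and 1.19. MYB87, next to HAT22, was not called, at -0.067, -0.010 and -0.12. XTH24 is also on chromosome 4 but outside every raised stretch, beside XTH18 and XTH19.

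**Figure D2:**
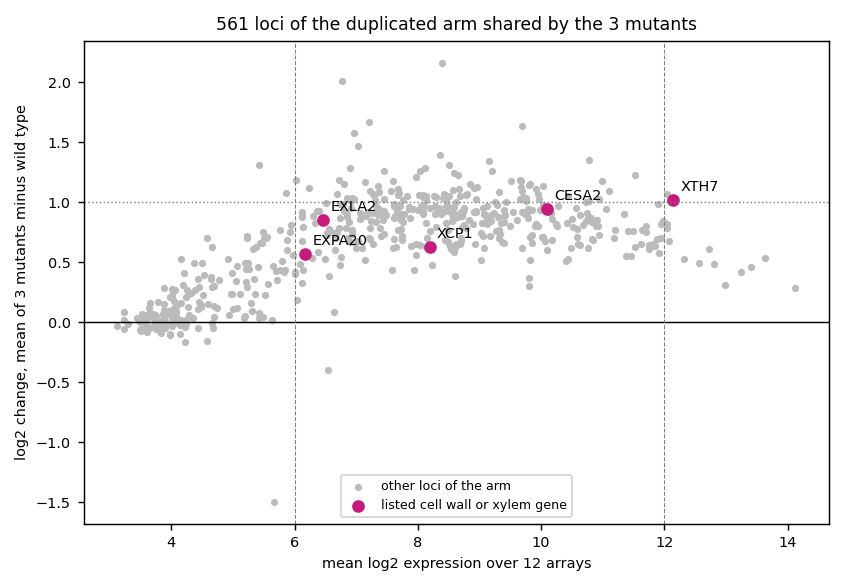
Change of each of the 561 loci of the arm (mean of 3 mutants minus wild type, log2) against its mean log2 expression over 12 arrays; dashed lines mark the levels of 6 and 12 and the dotted line a change of 1. XTH7 sits at 1.02 at the end of strong signal, where most other loci lie lower, and the listed arm genes EXPA20, EXLA2, CESA2 and XCP1 are marked.

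XTH4, an XTH gene of strong signal, read 11.92, 11.98 and 11.83 in wild type, with gra1-D at 11.78, 11.57 and 11.53, gra2-D at 11.82, 11.78 and 11.60 and gra3-D at 12.04, 11.81 and 11.84. The gra1-D and gra2-D arrays lay below wild type and those of gra3-D overlapped it. Its change of -0.28 ± 0.092 in gra1-D had an adjusted p of 0.101 by limma. The changes were -0.18 in gra2-D (95% interval -0.37 to 0.021, adjusted p = 0.272) and -0.010 in gra3-D (-0.21 to 0.19). With the replicate block without gra3-D, XTH4 was called lower in gra1-D (adjusted p = 0.0316).

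XTH24, first described as the meristem gene MERI5, read 8.18, 8.32 and 8.06 in wild type, with gra1-D at 7.98, 7.83 and 7.59, gra2-D at 8.24, 8.38 and 7.75 and gra3-D at 8.20, 8.00 and 7.91. Only in gra1-D did all arrays lie below wild type. That change of -0.39 ± 0.15 had an adjusted p of 0.172 by limma and 0.0317 with the replicate block without gra3-D. In gra2-D it was -0.065 (95% interval -0.38 to 0.25) and in gra3-D -0.15 (-0.47 to 0.17).

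XTH6 stood at means of 10.6 in wild type and 10.7 to 10.8 in the mutants, with changes of 0.16, 0.21 and 0.12 and adjusted p from 0.256 to 0.65 by limma. Without gra1-D replicate 2 the gra1-D change was 0.045, and leaving out 1 array put that in gra3-D between 0.060 and 0.20. XTH5, with a mean log2 value of 5.15, gave weak signal and read 5.0 to 5.42 over all arrays. Its changes of -0.020, 0.091 and -0.0021 had 95% intervals that together ran from -0.25 to 0.32. Each of these intervals held 0, so none of the XTH5 changes could be told from 0.

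Of the expansin members, EXPA16 had the largest fall, at a signal close to background. It read 5.32, 5.05 and 5.24 in wild type, with gra1-D at 4.54, 4.37 and 4.72, gra2-D at 4.89, 4.83 and 4.79 and gra3-D at 4.86, 4.40 and 4.60. Every mutant array lay below every wild-type array, and gra2-D lay above gra1-D on all 3 arrays. The change was -0.66 ± 0.12 in gra1-D (adjusted p = 0.00312) and -0.58 ± 0.12 in gra3-D (adjusted p = 0.00703), both called by limma. In gra2-D it was -0.37 ± 0.12 with adjusted p = 0.0576, and 0.0124 with the replicate block without gra3-D. Group means under 5 count here as close to background, a bound that an earlier look at these arrays set. All 3 mutant means were under it, and whether background altered the size of these falls was not tested. The difference of 0.29 between gra2-D and gra1-D was not called (adjusted p = 0.458, limma).

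EXPA10, which affects leaf size when its level is altered, read 9.55, 9.08 and 9.07 in wild type, with gra1-D at 8.96, 8.78 and 8.82, gra2-D at 9.01, 8.79 and 8.72 and gra3-D at 8.61, 8.64 and 9.10. All arrays of gra1-D and gra2-D lay below wild type, and gra3-D overlapped it through replicate 3. The single comparisons gave -0.39 ± 0.15, -0.40 ± 0.15 and -0.45 ± 0.15, with adjusted p = 0.169, 0.111 and 0.0963 by limma. The mean of the mutants stood 0.41 ± 0.12 lower, at 75.1% of the wild-type level (log2 -0.41, adjusted p = 0.0403), with 8 of 9 mutant arrays below wild type. With the replicate block without gra3-D, EXPA10 was called in gra1-D (adjusted p = 0.0129) and gra2-D (0.00671). Without WT replicate 1, the highest of all EXPA10 values, the single changes were -0.23, -0.24 and -0.30 and the mean change was -0.25 and not called (adjusted p = 0.251), and the call also ended without any 1 of 7 other arrays.

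EXPA5, an expansin gene that brassinosteroid induces, read 10.32, 10.30 and 10.35 in wild type, with gra1-D at 10.24, 10.01 and 10.09, gra2-D at 10.17, 10.09 and 10.11 and gra3-D at 10.02, 10.02 and 10.21. All 9 mutant arrays lay below wild type, and the pooled SD within groups, 0.082, was the smallest of the 10 members. The changes were -0.21, -0.20 and -0.24 (SE 0.076), with adjusted p = 0.145, 0.115 and 0.0886 by limma. The mean of the mutants fell to 86.0% of wild type (log2 -0.22 ± 0.062, adjusted p = 0.0365). Leaving out any 1 of 9 arrays ended that call (adjusted p up to 0.129), as did arrays centred on chromosomes 1, 2, 3 and 5 (0.0575).

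For the mean of the mutants, 2 members (EXPA5 and EXPA16) lay below wild type without overlap and 1 above, against 6.38% and 4.12% of all loci. In the single mutants 5, 4 and 2 members lay below without overlap, in gra1-D, gra2-D and gra3-D, where 14.2%, 14.8% and 13.7% of all loci did.

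EXPA1, which affects guard cell walls, and EXPA8 gave strong signal and were not called in any mutant. EXPA1 read 12.21, 11.96 and 12.04 in wild type, with gra1-D at 11.95, 11.47 and 11.99, gra2-D at 12.01, 11.95 and 12.10 and gra3-D at 11.98, 11.80 and 12.27, so that groups overlapped. Its changes were -0.27 in gra1-D (95% interval -0.57 to 0.031), -0.053 in gra2-D (-0.35 to 0.25) and -0.053 in gra3-D (-0.35 to 0.25). Without gra1-D replicate 2, the lowest EXPA1 value, the gra1-D change was -0.10. EXPA8 read 11.25 to 11.67 over the 12 arrays and changed by -0.028, 0.065 and 0.033, with 95% intervals that together ran from -0.27 to 0.31. These intervals bound the changes without showing that there were none.

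**Figure D3:**
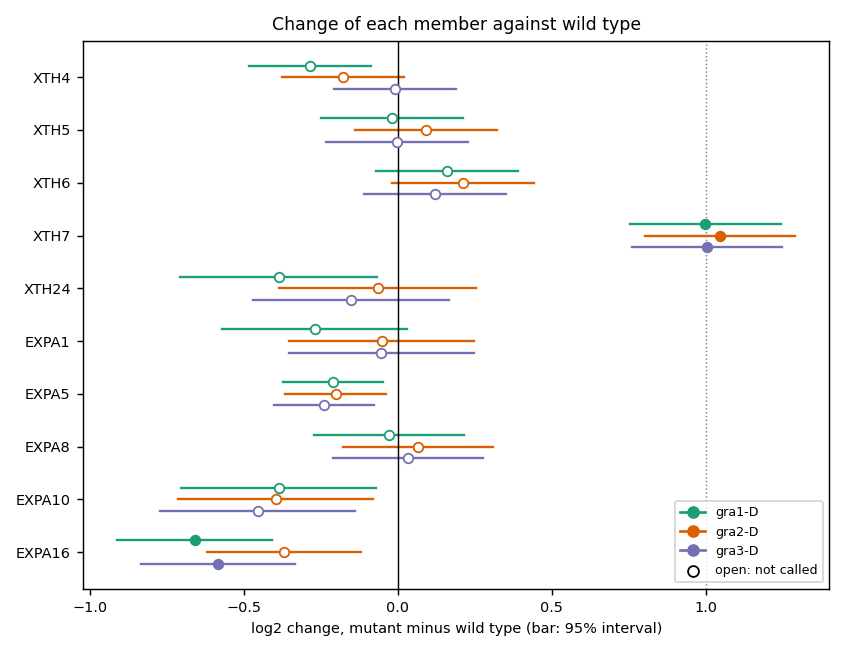
Log2 change of each member against wild type in gra1-D, gra2-D and gra3-D, with bars for the 95% interval; filled points were called by limma and the dotted line marks a doubling. The XTH7 points lie at 1.0, 1.05 and 1.0, and those of EXPA16 at -0.66, -0.37 and -0.58 reach furthest to the left.

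Between mutants, 0 members were called. At an unadjusted p under 0.05, 2 members differed between gra2-D and gra1-D, 1 between gra3-D and gra1-D and 0 between gra3-D and gra2-D (limma), where 8.86%, 3.86% and 9.91% of all loci did. At an adjusted p under 0.05, 1.23%, 0.221% and 0.89% of all loci were called in these comparisons. The largest differences were XTH24, 0.32 higher in gra2-D than in gra1-D (adjusted p = 0.561), EXPA16 (0.29, above) and XTH4, 0.27 higher in gra3-D than in gra1-D with no overlap (adjusted p = 1.0). XTH7 differed between mutants by 0.049 or less in size.

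Among the members, levels over the 12 arrays correlated most between EXPA5 and EXPA10 (Pearson 0.84), XTH4 and XTH24 (0.79), EXPA1 and EXPA8 (0.74) and EXPA5 and EXPA16 (0.72). XTH7 and EXPA16 had the most negative value (-0.74). These are descriptions over arrays that share groups and normalization. For each member 11294 or 11295 expressed loci of the whole table were searched over the 12 arrays. The values below are the highest of that search and were not tested. XTH7 was most like WOX13 and VAB2, both in the raised arm (0.989 and 0.987). EXPA5 was most like AT2G46930 (0.948) and ALDH22A1 (0.943), EXPA10 like BEL10 and AT3G52870 (0.942 each), and EXPA16 like SGT1A (0.937) and AT5G06580 (0.935). XTH4 was most like AT5G51180 (0.900) and UBC28 (0.897), XTH6 like AT1G61100 (0.925) and AT3G19850 (0.900), and XTH24 like TTL4 (0.876) and AT2G30000 (0.871). EXPA1 was most like LUP1 (0.932) and TMO6 (0.921), EXPA8 like AT1G27000 (0.905) and AT2G20330 (0.902), and XTH5 like AT1G31220 (0.883) and KAO2 (0.881).

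In the whole XTH family, 33 loci, XTH7 was the 1 called in each mutant, higher, with 0 lower. Of all loci 2.82%, 5.24% and 3.13% were called higher in gra1-D, gra2-D and gra3-D, and 2.76%, 6.23% and 2.97% lower. At an unadjusted p under 0.05, 5, 6 and 3 XTH loci differed in gra1-D, gra2-D and gra3-D, where 18%, 23.8% and 17.7% of all loci did. The family's median log2 change was 0.023, 0.048 and 0.032, and 17 of its 33 loci had a mean log2 value under 5. XTH19, next to XTH18 and XTH24 on chromosome 4, rose in the mean of the mutants by 1.0 ± 0.30 (adjusted p = 0.0491, limma). It read 5.94, 5.15 and 5.32 in wild type, with gra1-D at 6.97, 5.22 and 6.66, gra2-D at 6.61, 6.16 and 6.51 and gra3-D at 6.87, 6.14 and 7.09. Of the 9 mutant arrays 8 lay above wild type and gra1-D replicate 2 did not, and leaving out any 1 of 9 arrays, or array weights, ended the call (adjusted p up to 0.199).

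XTH22, the touch-induced gene TCH4, had the largest uncalled differences of the family in gra1-D and gra2-D, and it is named after its values were seen. It read 6.80, 7.63 and 6.79 in wild type, with gra1-D at 7.90, 8.84 and 7.56, gra2-D at 8.81, 7.99 and 8.46 and gra3-D at 8.86, 8.86 and 6.76. Replicate 3 of gra3-D was at the wild-type level while the other two were highest of all. The changes of 1.03, 1.34 and 1.09 had adjusted p = 0.289, 0.1 and 0.257 by limma. With the replicate block without gra3-D, 2 XTH loci were higher and 3 lower in gra1-D and 5 were higher and 2 lower in gra2-D, where 3.87% and 4.89% of all loci were higher and lower in gra1-D and 7.18% and 8.56% in gra2-D. Those in gra2-D were XTH7, XTH22 (adjusted p = 0.0122), XTH19 (0.0155), XTH31 (0.0264) and XTH16 (0.0351) higher, and XTH15 (0.00634) and XTH8 (0.04999) lower. In gra1-D they were XTH7 and XTH19 (0.0486) higher and XTH4, XTH24 and XTH8 (0.0321) lower. XTH15 had a mean log2 value of 4.55, close to background.

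Of the 36 expansin loci listed 29 were measured, and 2 were called higher and 1 lower in gra1-D, while gra2-D had 5 and 0 and gra3-D 2 and 1. The shares of all loci called higher were 2.82%, 5.24% and 3.13% in the same order, and those called lower 2.76%, 6.23% and 2.97%. The family's median log2 change was 0.016, 0.066 and -0.0032. EXPA20 and EXLA2, an alpha-expansin and an expansin-like gene, lie in the raised arm. EXLA2 read 5.83, 5.95 and 5.71 in wild type, with gra1-D at 6.39, 6.70 and 6.46, gra2-D at 7.15, 6.92 and 6.76 and gra3-D at 7.09, 6.64 and 6.01. Every mutant array lay above wild type. EXLA2 rose in gra2-D by 1.11 ± 0.20 (adjusted p = 0.00229) and in gra3-D by 0.75 ± 0.20 (0.0429), and stood at 0.68 in gra1-D (0.0681, and 0.00164 with the replicate block without gra3-D). Without gra3-D replicate 1 the gra3-D change was 0.49, and its call ended when any 1 of 5 arrays was left out or with the compared arrays alone (adjusted p up to 0.141).

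EXPA20 rose by 0.57 ± 0.15 in gra1-D (adjusted p = 0.0414, limma) and 0.66 ± 0.15 in gra2-D (0.0111) and stood at 0.48 in gra3-D (0.0859). Without WT replicate 2 the gra1-D change was 0.38, and its call ended without any 1 of 3 arrays or with the compared arrays alone (adjusted p up to 0.153). Without that same array the gra3-D change was 0.29, and the mean change of the mutants was 0.38 in place of 0.57. EXLB1, an expansin-like gene on chromosome 4 outside the raised stretches, read 7.45, 7.39 and 7.33 in wild type, with gra1-D at 8.05, 7.87 and 7.60, gra2-D at 7.96, 7.80 and 7.57 and gra3-D at 7.70, 7.88 and 7.93. All 9 mutant arrays lay above wild type. It rose by 0.45, 0.39 and 0.45 (SE 0.12; adjusted p = 0.0411, 0.0498 and 0.0383) and in the mean of the mutants by 0.43 ± 0.096 (0.0102). Each single call ended without any 1 of 5 arrays (adjusted p up to 0.173), that in gra1-D also with the compared arrays alone, and that of the mean without WT replicate 3 (0.0572).

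In gra2-D, EXPA11 (0.35 ± 0.090, adjusted p = 0.0231) and the beta-expansin gene EXPB1 (0.45 ± 0.14, adjusted p = 0.0495) were also higher by limma. The call of EXPA11 ended without any 1 of 3 arrays or with the compared arrays alone (adjusted p up to 0.0929), and that of EXPB1 without any 1 of 5 arrays or with array weights (up to 0.151). Differences between mutants were not called for any expansin, with 2, 1 and 2 at an unadjusted p under 0.05 for gra2-D against gra1-D, gra3-D against gra1-D and gra3-D against gra2-D (8.86%, 3.86% and 9.91% of all loci). With the replicate block without gra3-D, 4 expansins were higher and 2 lower in gra1-D, with EXPB1 (adjusted p = 0.0162) among those higher, and 5 were higher and 2 lower in gra2-D, beside 3.87% and 4.89% of all loci in gra1-D and 7.18% and 8.56% in gra2-D. How the authors grouped probes by locus is not given in the sources used here, so signal shared between close paralogs could not be checked.

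**Figure D4:**
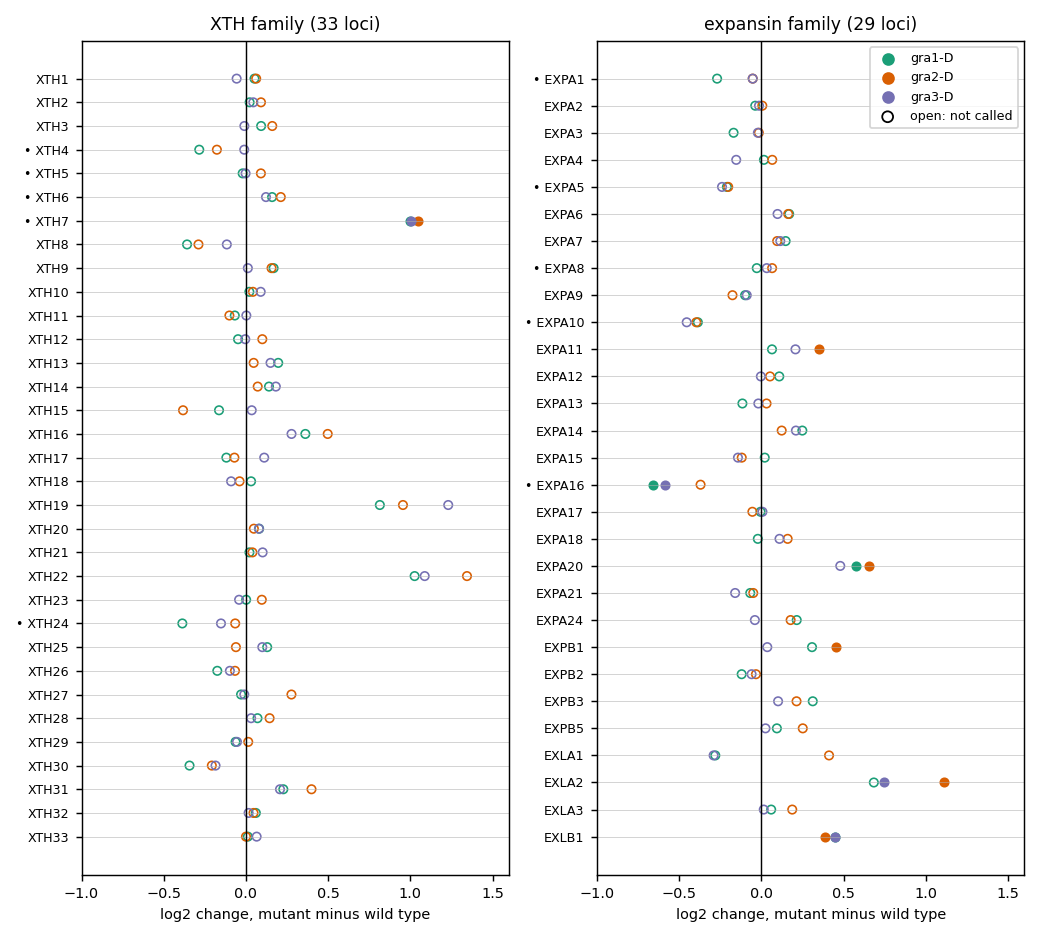
Log2 change against wild type of the 33 XTH loci (left) and the 29 measured expansin loci (right) in gra1-D, gra2-D and gra3-D, with members marked by a dot, called changes filled and others open. XTH7 has 3 filled points on the left, and XTH19 and XTH22 have large changes that were not called in any single mutant.

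The proton pump genes listed were AHA1, AHA2, AHA3, AHA4, AHA8, AHA10 and AHA11, so the counts are for these and not for the whole family. Of these 7 genes for plasma membrane proton pumps, which acidify the wall, 0 were called higher and 1 lower in gra1-D. The counts were 1 and 3 in gra2-D and 0 and 1 in gra3-D. Of all loci 2.82%, 5.24% and 3.13% were higher and 2.76%, 6.23% and 2.97% lower. In the mean of the 3 mutants AHA4 was higher and AHA2, AHA8 and AHA11 were lower, where 4.83% and 6.91% of all loci were. That AHA8 call ended without WT replicate 1 (adjusted p = 0.0762, limma). AHA1, AHA3 and AHA10 were not called in any mutant or in the mean. AHA1 had the strongest signal of the list, with means of 11.2 in wild type and 11.2, 11.1 and 11.3 in gra1-D, gra2-D and gra3-D. AHA2, a main plasma membrane proton pump, read 10.46, 10.24 and 10.39 in wild type, with gra1-D at 10.01, 9.73 and 9.99, gra2-D at 9.97, 9.98 and 9.92 and gra3-D at 10.07, 10.24 and 10.20. All 9 mutant arrays lay below wild type, those of gra3-D nearest to it. AHA2 fell by 0.45 in gra1-D (log2 -0.45 ± 0.088, adjusted p = 0.00657) and by 0.41 in gra2-D (-0.41 ± 0.088, adjusted p = 0.00761), and stood at -0.19 in gra3-D (0.269, limma). AHA8 stood at -0.38 in gra1-D (adjusted p = 0.079, and 0.00942 with the replicate block without gra3-D) and fell in gra2-D (-0.42, 0.0332) and gra3-D (-0.45, 0.0332). The AHA8 calls ended without any 1 of 3 arrays or with the compared arrays alone in gra2-D (adjusted p up to 0.137) and without any 1 of 4 arrays in gra3-D (up to 0.153).

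AHA11 fell in gra2-D by 0.54 (log2 -0.54 ± 0.093, adjusted p = 0.00154) and stood at -0.28 and -0.29 in gra1-D and gra3-D (adjusted p = 0.114 and 0.0911, limma). AHA4 went the other way in gra2-D, at 0.70 ± 0.094 (adjusted p = 0.000202, limma), from a wild-type mean of 4.82, close to background. Whether background altered the size of that rise was not tested. AHA4 read 4.83, 4.73 and 4.91 in wild type, with gra1-D at 5.02, 5.03 and 4.87, gra2-D at 5.53, 5.36 and 5.66 and gra3-D at 5.24, 5.04 and 4.96.

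Genes of primary wall cellulose and xyloglucan synthesis had no called falls in any mutant without the block. Of all loci 2.76%, 6.23% and 2.97% were called lower in gra1-D, gra2-D and gra3-D. Of 8 primary wall cellulose synthesis loci 2 were called higher in gra2-D and 1 each in gra1-D and gra3-D. The shares of all loci called higher were 2.82%, 5.24% and 3.13% in gra1-D, gra2-D and gra3-D. CESA2, a primary wall cellulose synthase gene of the raised arm, rose by 0.93, 0.98 and 0.92 (SE 0.074; adjusted p = 2.63e-06, 1.07e-06 and 2.14e-06, limma). CESA1, a core subunit gene of the primary wall complex, lies in the stretch raised in gra2-D alone and rose there by 1.02 ± 0.066 (adjusted p = 5.21e-07). It stood at 0.18 in gra1-D (0.155) and 0.11 in gra3-D (0.453). Of 8 genes of xyloglucan synthesis and trimming 0 were called in gra1-D and gra3-D by limma. At an unadjusted p under 0.05 stood 2 in each of these mutants, where 18% and 17.7% of all loci did. In gra2-D 2 were higher, CSLC4, which makes the glucan backbone (0.44 ± 0.089, adjusted p = 0.00533), and XXT1, which adds xylose to it (0.57 ± 0.14, 0.0181). The call of XXT1 ended without any 1 of 4 arrays (adjusted p up to 0.0787). With the replicate block without gra3-D, the xylosyltransferase gene XXT5 was also higher in gra2-D (0.23, adjusted p = 0.0281) and the galactosidase gene BGAL10 lower in gra1-D (-0.39, 0.0113). That block also called CSLC4 higher in gra2-D than in gra1-D (0.38, adjusted p = 0.0122, and 0.0668 without the block), where 1.8% of all loci were called in either direction.

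Of the 4 secondary wall xylem markers, XCP1, a xylem protease gene of the raised arm, rose by 0.72, 0.59 and 0.57 (SE 0.12; adjusted p = 0.0025, 0.00642 and 0.013, limma). Leaving out WT replicate 2 or gra3-D replicate 3 ended the call in gra3-D (adjusted p up to 0.0625). CESA8, a secondary wall cellulose synthase gene, stood at -0.42 in gra1-D (0.079, and 0.0106 with the replicate block without gra3-D) and fell in gra2-D (-0.48, 0.0277) but was not called in gra3-D (-0.27, 0.293). CESA4 stood at -0.38 in gra2-D (0.148, and 0.0213 with that block). The gra2-D call of CESA8 ended without any 1 of 3 arrays, with the compared arrays alone and with arrays centred on chromosomes 1, 2, 3 and 5 (adjusted p up to 0.112). These 4 markers had mean log2 values of 5.62 to 8.19, and the part of vascular tissue in the changes of the members was not tested.

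**Figure D5:**
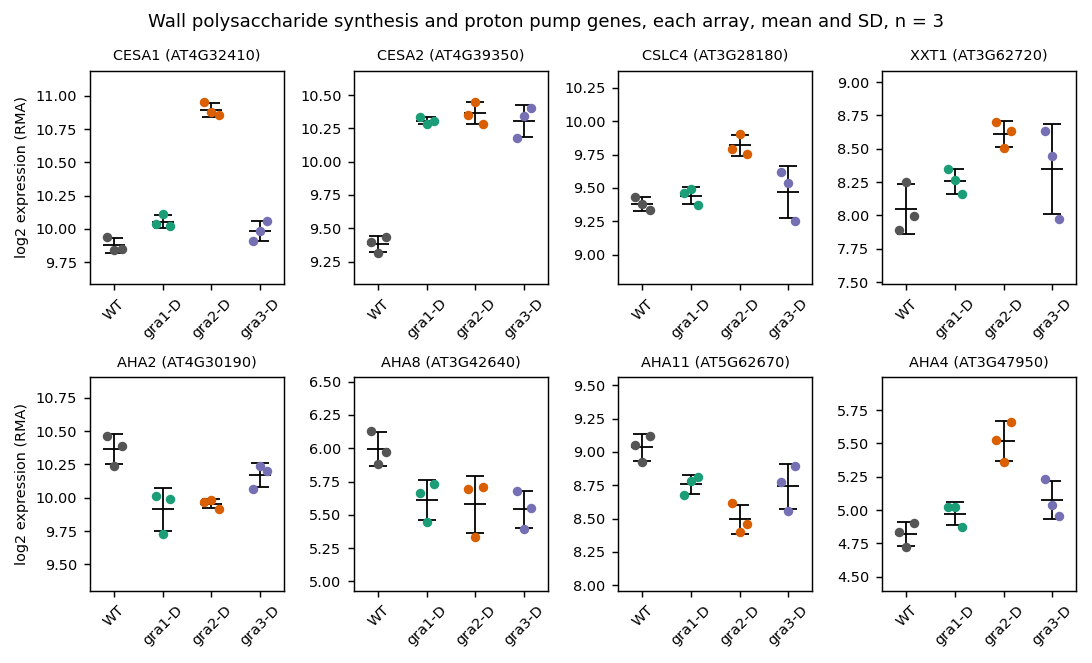
Log2 expression (RMA) of 4 wall polysaccharide synthesis genes (top) and 4 proton pump genes (bottom) in each array, by group, with bars for the mean and SD (n = 3); every panel has its own axis. CESA1 and AHA4 stand apart in gra2-D, CESA2 is higher in all 3 mutants, and AHA2 is lower in gra1-D and gra2-D.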

How the data were processed

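The deposited file holds the authors' log2 values for 20777 AGI loci, 1 value per locus and array, made with RMA (no version given), per the submitters' processing notes. Their range shows the log2 scale. The probe definition and genome build are not given in the sources used here. RefSeq names (assembly TAIR10.1) were found for 20508 loci.

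In R 4.3.3, lmFit and eBayes of limma 3.58.1 fitted the 4 group means over 12 arrays, leaving 8 residual degrees of freedom. The 7 contrasts (each mutant, and the mean of the 3 mutants, against wild type, and each pair of mutants) were two-sided, with Benjamini-Hochberg adjustment over all loci and a threshold of 0.05, and no filter or pseudocount. Arrays carry no read depth, so their number limits the precision. Tested on simulated data for gra1-D against wild type over 20777 loci, the fit recovered 99 of 100 changes of size 1 and 73 of 100 of size 0.5. The simulated noise was independent between arrays and only 200 loci were changed. Those rates therefore leave out any replicate pairing and are not rates for the single members.

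Equal replicate numbers deviated together among wild type, gra1-D and gra2-D (correlations 0.239 to 0.390). With gra3-D only replicate 2 did, at 0.227, 0.237 and 0.295 with wild type, gra1-D and gra2-D. Replicates 1 and 3 of gra3-D did not (-0.196 to 0.010). This pairing comes from the values, since no label ties equal numbers to a batch. The block fit without gra3-D was therefore added after seeing the data. Alternatives were a replicate block (fixed or random), a further quantile normalization, 2 centrings, filters on dim loci, an intensity trend, array weights, compared arrays alone and each array left out.

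The members, gene lists and tests were chosen with earlier results of these data known. Named were the 10 members; of other XTH and expansin loci, the 6 largest called changes per comparison and those in the arm; up to 4 called genes of each other list; and the 2 loci most like each member. The 115 list entries include 11 loci not analysed here. XTH and expansin genes outside this rule are named only where a block or a stated choice brought them in. All listed proton pump genes are named, called or not.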

Additional observations from a re-analysis of the deposited data

Results flagged for a closer look

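Of the genes described, 2 had changes that differed between mutants by the test of the difference itself, without the replicate block. CSLC4 was a further gene called with the block without gra3-D, 0.38 higher in gra2-D than in gra1-D (SE 0.062, adjusted p = 0.0122). CESA1 was higher in gra2-D than in gra1-D by 0.84 (SE 0.066, adjusted p = 4.33e-06, limma) and stood lower in gra3-D than in gra2-D, at -0.91 (SE 0.066, adjusted p = 3.18e-06). All 3 gra2-D arrays, at 10.85 to 10.95, lay above the 6 arrays of the other mutants. AHA4 was higher in gra2-D than in gra1-D by 0.54 (SE 0.094, adjusted p = 0.00711) and lower in gra3-D than in gra2-D, at -0.44 (adjusted p = 0.0488). The second of these calls ended in 7 of 15 alternatives (adjusted p up to 0.225). The AHA4 means were 4.97 in gra1-D, under the level of 5 taken as close to background, and 5.08 in gra3-D. Whether background altered the size of these differences was not tested. AHA4 lies on chromosome 3, outside the duplicated region.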

How the results depend on the processing

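The number of members called moved with the fit. In gra1-D it was 2, and 4 with the replicate block, 5 with the block without gra3-D and 1 with filters at a mean log2 of at least 6 or 5; leaving out each array gave 2 to 2. In gra2-D it was 1, and 2 with the replicate block, the random block, a further quantile normalization, array-median centring or the compared arrays alone, and 3 with the block without gra3-D; leaving out each array gave 1 to 2. In gra3-D it was 2, and 1 with either filter, 3 with the intensity trend (EXPA5 added) or array weights (EXPA10 added); leaving out each array gave 2 to 4, with 4 (EXPA5 and EXPA10 added) without gra3-D replicate 3. For the mean of the mutants it was 4, and 3 with arrays centred on chromosomes 1, 2, 3 and 5 (without EXPA5) or with either filter (without EXPA16); leaving out each array gave 2 to 4, with 2 without WT replicates 1 or 2, gra1-D replicates 2 or 3, gra2-D replicates 2 or 3 or gra3-D replicates 1 or 2. The filters remove EXPA16, so their lower counts rest on fewer genes tested; the cause of the other moves was not tested. Over all loci the replicate block moved the calls from 1160 to 1461 in gra1-D, 2383 to 2885 in gra2-D and 1269 to 1596 in gra3-D. The block without gra3-D moved them from 1160 to 1820 in gra1-D and from 2383 to 3271 in gra2-D. Calls over all loci are not given here for the other alternatives. The pairing changed no call of XTH7. The departure of XTH7 from its arm was called under none of the alternatives run. XTH7 kept its direction and its call in all of them, in each mutant. Over 1460 values of single genes, 1305 kept direction and side of the threshold, 96 lost a call, 24 gained one and 35, called in neither fit, changed sign.

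The sign changes are of log2 changes near 0. With arrays centred on their median, XTH5 stood at 2.94e-06 in gra1-D and 0.00477 in gra3-D. Centred on chromosomes 1, 2, 3 and 5, XTH5 stood at 0.0219 in gra1-D and 0.0236 in gra3-D, EXPA8 at 0.0137 in gra1-D and XTH4 at 0.0154 in gra3-D. In gra3-D, further quantile normalization gave 0.00546 for XTH4 and 0.00748 for XTH5, and array weights 0.00748 for XTH5. Leaving out each array in turn moved XTH5 from -0.0881 to 0.0739 in gra1-D, from -0.00626 to 0.185 in gra2-D, from -0.0849 to 0.0916 in gra3-D and from -0.0452 to 0.117 in the mean. It moved EXPA8 from -0.149 to 0.0629, -0.0554 to 0.137, -0.088 to 0.104 and -0.0974 to 0.0948 in the same order. It moved EXPA1 from -0.107 to 0.0168 in gra2-D and -0.179 to 0.0555 in gra3-D, XTH24 from -0.194 to 0.122 in gra2-D and XTH4 from -0.0827 to 0.033 in gra3-D. Of uncalled changes that kept their sign, leaving out 1 array moved XTH4 in gra2-D to -0.107 and XTH24 in gra3-D to between -0.235 and -0.0844.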
